A study of Homo sapiens with 10 samples.

Results

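Human chromosome 19 carries the densest collection of zinc finger transcription factor genes in the genome. In the count table of this series, 240 genes lay on chromosome 19 and had a symbol made of ZNF, a number and at most 1 further letter. They were taken as the members, out of 31017 genes in all, and no expression or interaction value was used to choose them. The series compared H9, a human embryonic stem cell (ESC) line kept in the undifferentiated state, with neuroectodermal cells (NECs) made from it over 7 days of neural induction. RNA-seq and promoter capture Hi-C (PCHi-C) were each performed on 2 biological replicates per cell type. No genetic change or drug separated the groups, and H9 is a single line, so the replicates do not sample different donors. By the sample labels, the ESC RNA libraries were sequenced together in 1 lane and the NEC RNA libraries together in a different lane, so no RNA difference given here can be told apart from a lane difference.

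C2H2 zinc finger proteins read DNA through tandem fingers, each of which contacts a few bases, and many of those on chromosome 19 also carry a KRAB domain near their amino terminus. The KRAB domain binds TRIM28, which brings in the histone methyltransferase SETDB1 and HP1 proteins, and this machinery is best known for silencing transposable elements in embryonic stem cells. Most of these genes arose by tandem duplication, so neighbours are often close paralogs, and reads from near-identical stretches of paralogs may have been assigned to the wrong copy. The counting ignored strand, and 54 of the 240 members overlap another gene of the table, so part of their reads may belong to that gene.

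Protein features were read from the coding sequences of the GRCh37 annotation for 229 members. They held a median of 12 C2H2 fingers (quartiles 9 and 15), from 0 up to 36 in ZNF208. A strict KRAB A-box pattern was found within the first 150 residues of 160 of the 229, and a miss with this pattern does not show that the domain is absent. Along the chromosome, 229 of the 240 members fell into 9 clusters, defined as runs of at least 5 members whose neighbouring starts lay no more than 1 Mb apart. In GRCh37 the clusters run from 2.82 to 2.94 Mb (cluster 1, 5 members), 7.07 to 9.88 Mb (cluster 2, 16 members), 11.59 to 12.75 Mb (cluster 3, 26 members) and 19.78 to 24.31 Mb (cluster 4, 34 members) on the short arm. On the long arm they run from 35.17 to 35.45 Mb (cluster 5, 5 members), 36.67 to 38.31 Mb (cluster 6, 25 members), 44.03 to 45.58 Mb (cluster 7, 22 members), 52.07 to 54.08 Mb (cluster 8, 39 members) and 55.99 to 59.00 Mb (cluster 9, 57 members).

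The promoters of 2 neighbouring members of cluster 3 are shown because both genes rose in NECs and because their sequences have stretches in common. They are the RefSeq promoters (GRCh38.p14, 250 bases before to 50 after the start), which match GRCh37 once each, at chr19:11877565-11877864 for ZNF441 and at chr19:11909088-11909387 for ZNF491, both on the plus strand. Capitals mark every run of at least 10 bases that occurs in both. In ZNF441 the separate runs GCGCAGGGAG and GAGGAAGCTA begin at −155 and −148 from the start, so they overlap and appear as a single stretch. In ZNF491 they begin at −156 and −228, apart and in the opposite order.
ZNF441: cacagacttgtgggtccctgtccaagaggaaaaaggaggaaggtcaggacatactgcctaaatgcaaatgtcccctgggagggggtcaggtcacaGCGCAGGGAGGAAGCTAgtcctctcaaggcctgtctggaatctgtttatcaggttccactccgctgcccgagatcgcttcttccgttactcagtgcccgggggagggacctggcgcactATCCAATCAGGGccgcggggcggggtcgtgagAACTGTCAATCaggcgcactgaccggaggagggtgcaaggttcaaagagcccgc
ZNF491: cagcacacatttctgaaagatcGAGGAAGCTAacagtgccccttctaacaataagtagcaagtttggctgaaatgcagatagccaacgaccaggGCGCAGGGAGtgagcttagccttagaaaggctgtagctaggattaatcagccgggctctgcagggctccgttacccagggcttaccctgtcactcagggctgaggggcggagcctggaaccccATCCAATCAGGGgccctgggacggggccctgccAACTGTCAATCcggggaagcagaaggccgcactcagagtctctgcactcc

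The longest shared run, ATCCAATCAGGG, begins 36 bases before the start in ZNF441 and 33 bases before it in ZNF491, and it holds the CCAAT letters that nuclear factor Y is known to bind. The RefSeq start of ZNF491 lies 856 bases downstream of the gene start in the count table, outside the captured fragment of that gene. Searched on both strands of the 300-base promoters, the core CCAATCAGGG was found in 24 of the 207 member promoters in the RefSeq table (11.6%) and in 125 of all 27305 promoters (0.458%). Of 206 promoters of ZNF genes on other chromosomes, 8 held it. It was found in 14 of 24 promoters of cluster 3, in 7 of 26 of cluster 4 and in 3 of 5 of cluster 1, and in none of the other clusters. The shorter stretch CCAATCA, which these letters contain, was found in 58 member promoters (28.0%) against 7.28% of all promoters. All 26 promoters of cluster 4, 22 of 24 in cluster 3 and 4 of 5 in cluster 1 held it, against 1 of 32 in cluster 8, 4 of 52 in cluster 9 and none in clusters 2, 5, 6 and 7. These letters were chosen after the shared run had been seen, and a match of letters is not a measure of binding. The log2 fold change was positive in 30 of 53 tested members with CCAATCA and in 15 of 22 with the core. It was positive in 134 of all 224 tested members, and a link between these letters and expression was not tested.

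Library totals ranged from 19234087 to 25356382 counts, and the members took 0.303% to 0.330% of the counts of each library. The labels were checked against marker genes that are not members. All 5 pluripotency markers and all 5 mesendoderm markers fell and all 5 neuroectoderm markers rose in NECs. The summed pluripotency markers stood at 2939 to 3020 CPM in the ESC libraries and at 169 and 339 CPM in NEC replicates 1 and 2. The summed mesendoderm markers stood at 29.7 and 81.6 CPM in ESC replicates 1 and 2 and at 1.91 to 2.67 CPM in the NEC libraries. Of the 5 neural crest markers, 3 rose, from ESC means of 0.0265 (TFAP2A), 0.294 (PAX3) and 0.849 CPM (SNAI2). SOX10 and FOXD3 did not pass edgeR's test. All 5 together summed to 19.9 to 21.0 CPM in the ESC libraries. Their sum was 39.3 to 123 CPM in the NEC libraries, the higher in NEC replicate 1. FOXD3 made up most of the ESC sum and went the other way. Its mean was 15.6 CPM in ESCs and 4.53 CPM in NECs, a log2 fold change of −1.81 (SE 0.94). SOX10 had 3.67 and 9.54 CPM. CPM here is the count scaled to the library size after TMM normalization, means are given ± SD with n = 2, and the part of such other cells in the member values was not tested. In bulk samples, fewer cells of a type and less RNA per cell cannot be told apart.

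The zinc finger genes of chromosome 19 were called as changed less often than tested genes at large. Their median level was 7.95 CPM in ESCs and 9.26 CPM in NECs. This is below the 12.5 and 14.4 CPM of other protein-coding genes and above the 4.68 and 6.22 CPM of the other genes of chromosome 19. These medians include genes with few or no counts. Of the members 93.3% passed edgeR's filter on low counts, and of the other chromosome 19 genes 70.7%. Among genes that passed, the median of average log2 CPM was lower for the members, at 3.24 against 4.52 for the other chromosome 19 genes. At the upper end, 12 of the 240 exceeded 50 CPM in either cell type. After edgeR's filter on low counts, 224 members were tested, all against the same fit of 17564 genes. Calls required a Benjamini-Hochberg adjusted p under 0.05 in edgeR's quasi-likelihood test and an absolute log2 fold change above 1.5. By this rule 15 members were called, 9 higher and 6 lower in NECs, which is 6.70% of those tested, while 21.0% of all tested genes were called (11.4% higher and 9.68% lower). Of the 249 tested genes with the same form of name on other chromosomes, 9.64% were called, and of the 905 other tested genes of chromosome 19, 17.2%. Without the threshold on the fold change, 59 members were higher and 33 lower at an edgeR adjusted p under 0.05. These are 41.1% of the members tested, against 61.1% of all tested genes (31.5% higher and 29.7% lower). The median absolute log2 fold change of those 92 members was 0.86, and 56 of them changed by less than 1 on the log2 scale.

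The share called was also set against genes of a similar level, without a test. Below 0 on the scale of average log2 CPM, 4 of 8 members were called and 52.2% of 835 protein-coding genes that are not members. Between 0 and 2 the shares were 10.3% of 39 and 43.0% of 1731. Between 2 and 4, which holds 112 of the tested members, 3 members (2.68%) were called, against 27.0% of 2746 such protein-coding genes and 9.09% of 88 ZNF genes of other chromosomes. Between 4 and 6 the shares were 6.25% of 64 members, 6.19% of 113 ZNF genes of other chromosomes and 11.0% of 5315 protein-coding genes. From 2 to 4 the median absolute log2 fold change was 0.41 for the members, 0.50 for ZNF genes of other chromosomes and 0.80 for the protein-coding genes. The signed median of all tested members was 0.17, with quartiles of −0.26 and 0.58, and 134 of the 224 had a positive value. The median over all tested genes was 0.01. With 1 library left out the signed median of the members ranged from 0.07 to 0.21, and it was lowest without NEC replicate 2, when 12 members were called higher and 12 lower.

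**Figure D1:**
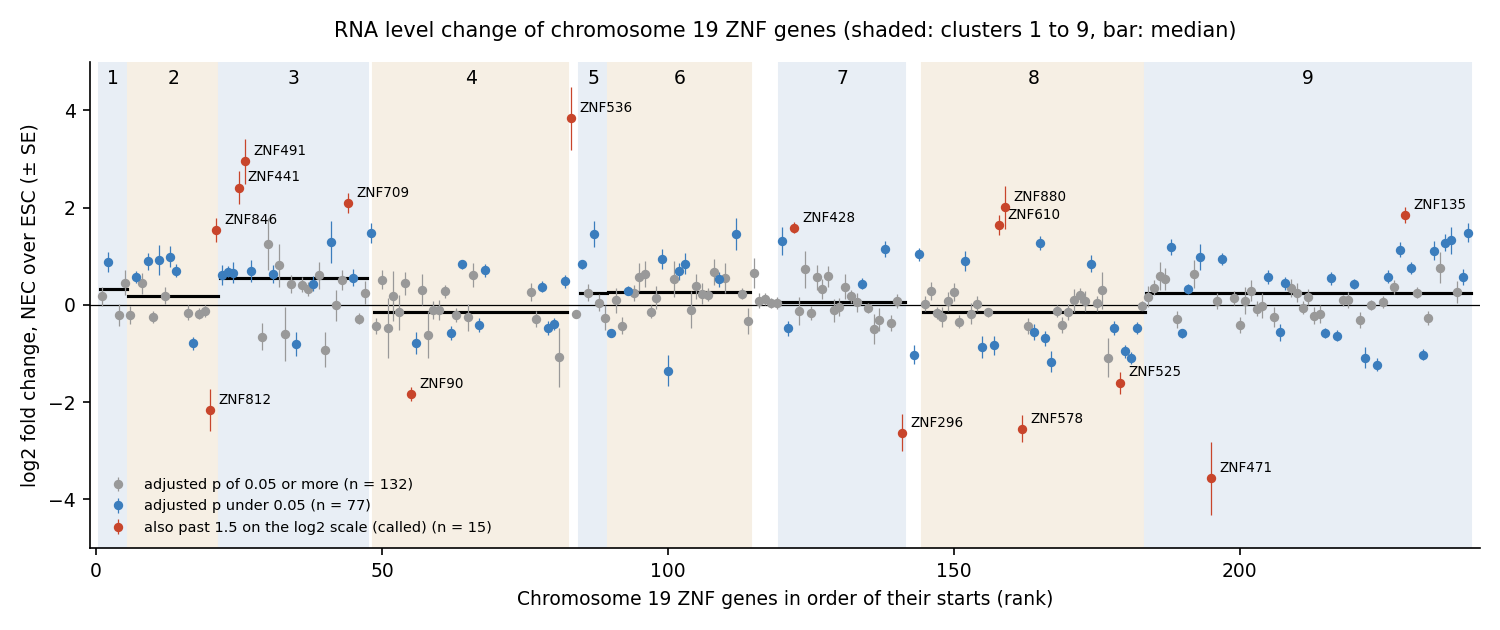
log2 fold change (NEC over ESC, ± SE from edgeR) of the 224 tested members, placed by the rank of their starts along chromosome 19. Shaded blocks are clusters 1 to 9, black bars are cluster medians, grey points had an adjusted p of 0.05 or more, blue points an adjusted p under 0.05 and the 15 red points were also past 1.5 on the log2 scale. Most points sit close to 0, cluster 3 has the highest median of the 9 (0.56) and the named red points are spread over 6 clusters, with ZNF536 outside all of them.

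ZNF296 and ZNF578 were among the 6 members that fell. ZNF296 (chromosome 19, 45574759 to 45579845), which is known from mouse as a partner of the pluripotency factor KLF4, had 195 and 137 counts in the ESC libraries and 31 and 27 in the NEC libraries. Its level went from 7.94 ± 3.39 to 1.27 ± 0.252 CPM, which is −2.63 on the log2 scale (SE 0.38, adjusted p = 0.00147 in edgeR). ZNF578 (52956829 to 53020131) had 103 and 113 counts in ESCs and 19 and 20 in NECs, with a log2 fold change of −2.55 (SE 0.28), for which edgeR gave an adjusted p of 5e-04. In both genes the NEC libraries lay far below both ESC libraries, while in 83.8% of all tested genes the cell types did not overlap, in either direction.

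ZNF90 (20188803 to 20237885) and ZNF525 (53868946 to 53889846) fell from higher levels. ZNF90 had 675 and 808 counts in ESCs against 182 and 259 in NECs, a log2 fold change of −1.84 (SE 0.15). For ZNF525 the counts were 497 and 818 in ESCs and 164 and 292 in NECs, a log2 fold change of −1.60 (SE 0.23), and its call was lost without ESC replicate 2 or without NEC replicate 1. The other 2 members that fell were close to the limit of detection in NECs. ZNF471 (57019212 to 57040270) had 17 and 31 counts in ESCs and 0 and 4 in NECs, and ZNF812 (9800600 to 9811452) had 15 and 20 against 4 and 4. The call of ZNF812 was lost without ESC replicate 2 and with DESeq2's test.

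Of the 9 members that rose, ZNF428 reached the highest CPM in NECs. ZNF536 (30863328 to 31048965), a gene known for its expression in the nervous system, had 1 and 2 counts in the ESC libraries and 30 and 18 in the NEC libraries. Both ESC libraries were at or under the floor of 3 counts per library, so the change is given as a bound, at least 7.61-fold higher in NECs. ZNF428 (44111377 to 44124014) had 422 and 553 counts in ESCs and 1550 and 1518 in NECs, a log2 fold change of 1.58 (SE 0.11), for which edgeR gave an adjusted p of 0.000114. It overlaps SRRM5, and its call was lost without NEC replicate 1. ZNF135 (58570607 to 58597677) overlaps ZSCAN18 and had 190 and 197 counts against 753 and 725, a log2 fold change of 1.85 (SE 0.17).

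In cluster 3, ZNF441, ZNF491 and ZNF709 rose. ZNF441 (11877815 to 11894893) had 9 and 14 counts in ESCs and 68 and 61 in NECs, with a log2 fold change of 2.41 (SE 0.34), for which edgeR gave an adjusted p of 0.00126. Its downstream neighbour ZNF491 (11908482 to 11920437) had 2 and 6 counts against 28 and 39, with a log2 fold change of 2.96 (SE 0.46), for which edgeR gave an adjusted p of 0.002. ZNF709 (12571998 to 12624668) had 37 and 54 counts against 197 and 212, and a log2 fold change of 2.10 (SE 0.21), and it overlaps CTD-2192J16.17. For all 3 genes the lowest NEC library was above the highest ESC library. The libraries of the cell types also did not overlap in 83.8% of all tested genes, in either direction.

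The remaining members that rose were ZNF610, ZNF880 and ZNF846. ZNF610 (52839498 to 52870375) and ZNF880 (52873170 to 52889048) are neighbours in cluster 8, where more members fell than rose at an adjusted p under 0.05. ZNF610 had 58 and 73 counts in ESCs and 183 and 252 in NECs, a log2 fold change of 1.64 (SE 0.21). ZNF880 had 8 and 16 counts against 33 and 70, a log2 fold change of 2.01 (SE 0.44), and its call was lost without NEC replicate 2. ZNF846 (9868151 to 9879410) had 31 and 45 counts against 117 and 115, and its log2 fold change of 1.54 (SE 0.25) was the closest of the 15 to the threshold. Its call was lost without ESC replicate 1 or NEC replicate 1. Just outside the threshold were ZNF781 and ZNF599, both at 1.46.

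**Figure D2:**
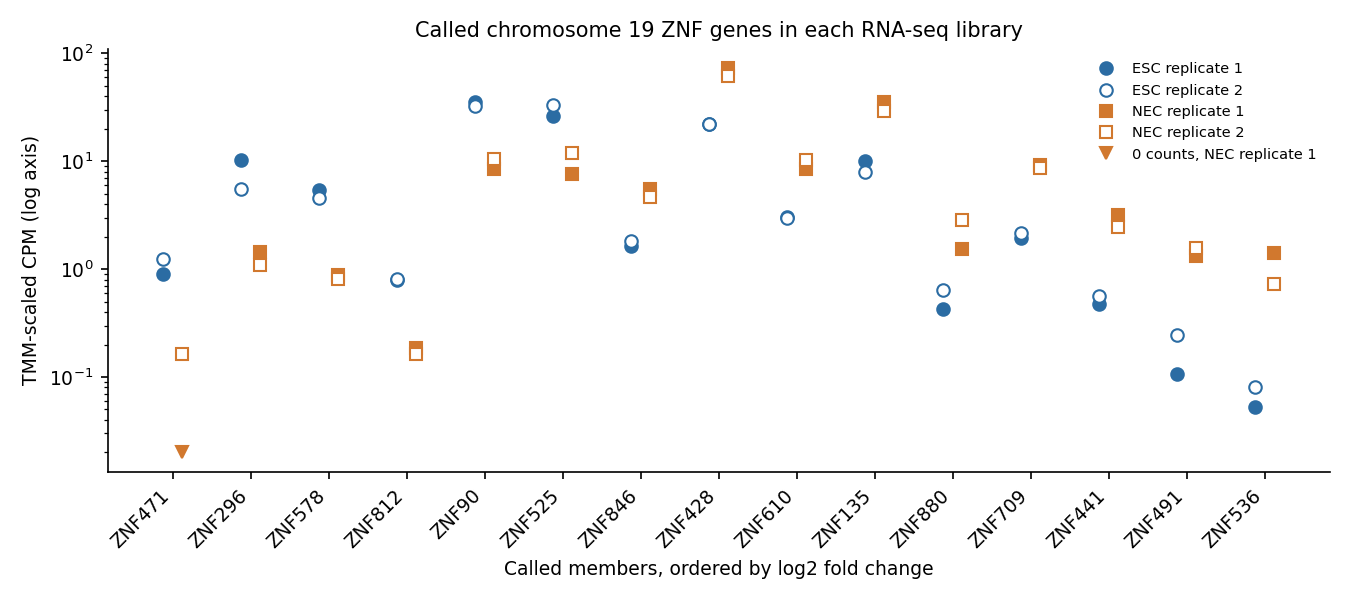
Level of the 15 called members in each of the 4 RNA-seq libraries, in TMM-scaled CPM on a log axis, ordered from the lowest to the highest log2 fold change. Circles are ESC and squares are NEC libraries, filled for replicate 1 and open for replicate 2, and the triangle marks the library in which ZNF471 had 0 counts. The ESC and NEC symbols do not overlap for any of the 15, which also holds for 83.8% of all tested genes.

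Levels between genes were compared per length of exon. Per kilobase of merged exons, the highest level belonged to ZNF146 in ESCs (59.2 CPM per kb) and to ZNF428 in NECs (43.2 CPM per kb). ZNF146 (36705504 to 36729673) consists almost only of fingers and has no KRAB domain. It fell by 0.57 on the log2 scale (SE 0.09, edgeR adjusted p = 0.00163), from 245 ± 0.900 to 165 ± 6.02 CPM, and it overlaps ZNF565. ZNF358 stood at 20.6 CPM per kb in ESCs and 30.6 in NECs, and rose by 0.57 on the log2 scale (SE 0.12, edgeR adjusted p = 0.00573). ZNF787 stood at 14.3 and 9.56 CPM per kb, and fell by 0.58 on the log2 scale (SE 0.09, edgeR adjusted p = 0.00218). ZNF581 had 18.4 CPM per kb in ESCs and 14.9 in NECs, a log2 fold change of −0.30 (SE 0.17) that did not pass the test. ZNF302 rose by 0.83 on the log2 scale (SE 0.09, edgeR adjusted p = 0.000517), from 5.79 to 10.3 CPM per kb. Of these 6 members, ZNF428 alone was called, as given above.

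Several members have a described role, and their values are given whether or not they changed. ZNF91 and ZNF93, which are known repressors of SVA and LINE-1 retrotransposons, lie in cluster 4. ZNF91 (23540501 to 23578269) had 492 and 747 counts in ESCs and 815 and 863 in NECs, a log2 fold change of 0.38 (SE 0.12), for which edgeR gave an adjusted p of 0.0301. It did not pass with DESeq2's test, without ESC replicate 1 or without NEC replicate 1. ZNF93 (20011722 to 20046860) had 257 and 158 counts against 166 and 248, and the ESC and NEC libraries overlapped. ZNF649, also linked to LINE-1 control, and ZNF417 and ZNF587, which are paralogs known to bind endogenous retroviruses, did not pass the test. Their log2 fold changes were −0.17 (SE 0.12), 0.07 (SE 0.12) and −0.0048 (SE 0.09).

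ZNF274, which recruits SETDB1 to the 3′ ends of zinc finger genes themselves, stood at 25.7 ± 1.62 CPM in ESCs and 30.5 ± 1.55 CPM in NECs, and its log2 fold change of 0.25 (SE 0.11) did not pass the test in edgeR, where the adjusted p was 0.089. The imprinted gene ZNF331 had 1087 and 1545 counts in ESCs and 1215 and 1525 in NECs, a log2 fold change of −0.02 (SE 0.10). ZNF473, a factor of histone pre-mRNA 3′ end processing, rose by 1.04 on the log2 scale (SE 0.13, edgeR adjusted p = 0.000918). ZNF114 fell by 1.03 on the log2 scale (SE 0.20, edgeR adjusted p = 0.00462). Neither change reached 1.5 on the log2 scale.

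The 16 members that did not pass the filter on low counts include 10 with 3 counts or fewer in every library. In cluster 4, 7 members were not tested, ZNF208, ZNF257, ZNF676, ZNF729, ZNF98, ZNF99 and, with 4 counts in each ESC library, ZNF492. ZNF208 had 1 count in each ESC library and 0 in the NEC libraries, ZNF676 had 1 and 2 against 0 and 0, and ZNF98 had 3 and 1 against 0 and 0. ZNF729 had 0 counts in all 4 libraries. ZNF534, known to bind the HERVH retrovirus family, had 2 and 5 counts in ESCs and 0 in both NEC libraries. At this depth a difference between the cell types was not detectable for these genes.

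The TRIM28 machinery that KRAB proteins act through was abundant in both cell types, with a summed level of its 14 listed genes between 2752 and 2947 CPM in the 4 libraries. The 14 were TRIM28, SETDB1, ATF7IP, CBX1, CBX3, CBX5, CHD3, MPHOSPH8, FAM208A, PPHLN1, MORC2, SMARCAD1, ATRX and DAXX. None of the 14 was called, against 21.0% of all tested genes. Each had a mean of at least 50.1 CPM in both cell types, and genes at such levels were called less often. Among protein-coding genes that are not members, 7.67% of 3742 were called at an average log2 CPM of 6 or more. Between 4 and 6, 11.0% of 5315 were called. At an edgeR adjusted p under 0.05 without a fold change threshold, 4 were higher and 4 lower in NECs. Of all tested genes, 31.5% were higher and 29.7% lower by that rule. CHD3 rose by 0.97 (SE 0.12) and SMARCAD1 fell by 0.55 (SE 0.13) on the log2 scale. TRIM28 fell by 0.44 on the log2 scale (SE 0.11, adjusted p = 0.0112 in edgeR), with 1052 ± 1.23 CPM in ESCs and 774 ± 24.0 CPM in NECs. SETDB1 rose by 0.34 on the log2 scale (SE 0.09, edgeR adjusted p = 0.0196). Of the 3 HP1 genes, CBX5 rose by 1.15 (SE 0.12) and CBX1 by 0.68 (SE 0.09) on the log2 scale, and CBX3 did not pass the test, with a log2 fold change of −0.15 (SE 0.09). The median over the 14 genes was −0.10, against 0.01 over all tested genes.

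The members were also counted by cluster, and no difference between clusters was tested. In cluster 3, 11 of 25 tested members were higher and 1 was lower in NECs at an edgeR adjusted p under 0.05, against 31.5% and 29.7% of all tested genes, and the median log2 fold change was 0.56. Besides ZNF441, ZNF491 and ZNF709, ZNF627, with 301 and 397 counts in ESCs and 547 and 632 in NECs, was among those that rose. The 7 other tested genes that lie within the same span had a median of −0.74, and 5 of them were lower and 1 higher. In cluster 8 the counts were 5 higher and 11 lower of 37 tested, with a median of −0.16, and its share of lower members is that of all genes. In cluster 4 they were 4 higher and 6 lower of 27, with a median of −0.15. In cluster 9, 17 were higher and 8 lower of 55, with a median of 0.25. In cluster 6 they were 6 and 2 of 24 (median 0.26), in cluster 7 they were 4 and 2 of 22 (median 0.06), and in cluster 2 they were 6 and 2 of 15 (median 0.19). Clusters 1 and 5, with 4 and 5 tested members, had 1 and 2 that were higher and none that were lower.

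The median kept its sign under every alternative fit in all clusters but cluster 4. Cluster 3 ranged from 0.42 to 0.62, cluster 8 from −0.26 to −0.06 and cluster 9 from 0.19 to 0.31. The counts at an adjusted p under 0.05 moved more. In cluster 3 they were 4 higher and 1 lower with DESeq2's test or without ESC replicate 2, 7 and 0 without ESC replicate 1, and 5 and 3 without NEC replicate 2. Without ESC replicate 2, cluster 6 had 0 higher and cluster 9 had 10, and cluster 8 had 7 lower. Without ESC replicate 1, cluster 6 had 3 higher. In cluster 4, 10 were lower without NEC replicate 2, 3 without ESC replicate 1 and 2 without ESC replicate 2 or NEC replicate 1. The median of cluster 4 was −0.39 without NEC replicate 2 and 0.08 without NEC replicate 1. In cluster 4, NEC replicate 1 had fewer counts than NEC replicate 2 for several genes, such as ZNF506 with 7 and 36, ZNF626 with 15 and 49 and ZNF726 with 6 and 34, which were chosen after their values were seen. The largest absolute change in each remaining cluster belonged to ZNF555 in cluster 1 (0.87, SE 0.20), ZNF599 in cluster 5 (1.46, SE 0.28) and ZNF781 in cluster 6 (1.46, SE 0.32). Neighbouring members did not move together as a rule. Over the 205 pairs of neighbouring tested members within a cluster, 110 had the same sign, and the correlation of their log2 fold changes across genes was weak (Pearson's r 0.09, Spearman's rho 0.08). These genes share libraries and are not independent.

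The calls were also divided by protein features. Of 150 tested members with the KRAB pattern 6.67% were called, and of 63 without it 6.35%. Their median log2 fold changes were 0.09 and 0.32. For members with 12 or fewer fingers 6.96% of 115 were called, against 6.12% of 98 with more than 12.

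PCHi-C captures the HindIII fragments that hold promoters (baits) and reads which other fragments were ligated to them. The deposited lists give a CHiCAGO score, a weighted negative log p-value, for each bait and promoter-interacting region (PIR) with a score of at least 12, with 1 list per replicate and 1 per cell type in which the authors combined both replicates (the merged list). All 3442 fragments of chromosome 19 in the lists are bounded by HindIII sites of GRCh37. The lists hold no read numbers, so the depth of each call is not known. A bait can be recognised in the lists only if it had a call in at least 1 of them, and in this sense 174 of the 240 members (72.5%) had a bait. Because some share a fragment, these were 167 baits of 21833, and in 138 of them no gene other than a member starts. The lists hold no bait for the starts of ZNF91, ZNF93, ZNF90, ZNF274 or ZNF587, among others. In cluster 4 the 34 members had 9 baits.

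Of the calls made from member baits, a large share ended on other member baits. In the merged lists 97 of the 167 member baits (58.1%) had at least 1 PIR in ESCs and 121 (72.5%) in NECs, against 79.6% and 81.4% of the other baits of chromosome 19 and 80.1% and 81.3% of all baits that are not members. In the replicate lists the share was 77.2% and 80.2% in ESCs and 74.3% and 73.1% in NECs, and the order of the cell types was the opposite of that in the merged lists. The other chromosome 19 baits were close to these values in the replicate lists, at 76.0% and 76.8% in ESCs and 78.6% and 74.6% in NECs. All baits that are not members stood above both groups in every replicate list, from 87.7% (NEC replicate 2) to 89.5% (ESC replicate 2). Member baits with a PIR had a median of 3 PIRs in ESCs and 2 in NECs. The median of the other baits of chromosome 19 was 3 in both. Of 355 calls from member baits in the ESC merged list, 142 (40.0%) ended on another member bait, and in NECs 170 of 463 (36.7%) did. In the 4 replicate lists the share was 30.6% to 32.4%. From the other baits of chromosome 19, 2.36% of calls in ESCs and 2.54% in NECs ended on a member bait. Only 2 of the 142 and 2 of the 170 calls left the cluster of their bait or came from a member outside all clusters. The 9 baits of cluster 4 had no call in either merged list, and 13 to 25 calls in each replicate list.

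The calls within clusters were set against the pairs of baits that could have been called. Of all 1393 pairs of member baits less than 1 Mb apart, 9.62% were called in ESCs and 11.1% in NECs, against 8.20% and 8.35% of the 16519 pairs of chromosome 19 baits of which neither is a member. The share depended on distance. Under 100 kb, 16.5% of 230 member pairs were called in ESCs and 22.6% in NECs, against 26.9% and 26.2% of the other pairs. The gap was smaller in the replicate lists and turned round in NEC replicate 1, with 12.6% against 13.8% and 11.7% against 14.5% in ESCs, and 17.0% against 15.2% in NEC replicate 1 and 23 of 230 against 11.1% in NEC replicate 2. Between 100 and 250 kb the shares were 13.6% and 16.7% of 294 member pairs against 18.0% and 17.7%, and between 250 and 500 kb they were 8.85% and 7.29% of 384 against 6.61% and 6.87%. Between 500 and 1000 kb, 4.54% of 485 member pairs were called in ESCs and 5.15% in NECs, against 0.947% and 1.42% of 7605 other pairs. In each of the 4 replicate lists the member pairs in this range were also called more often, at 5.36% to 8.45% against 1.89% to 2.31%. Calls to the single bait of ZNF329, described below, were 8.45% of the calls between member baits in the ESC merged list. In the NEC merged list they were 11.8%, at all distances. Several of them fall between 500 and 1000 kb, in NECs from the bait of ZNF211 (526 kb) out to that of ZNF460 (875 kb). The share of member pairs called without that bait was not computed. Pairs share baits and libraries and were not tested as independent.

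**Figure D3:**
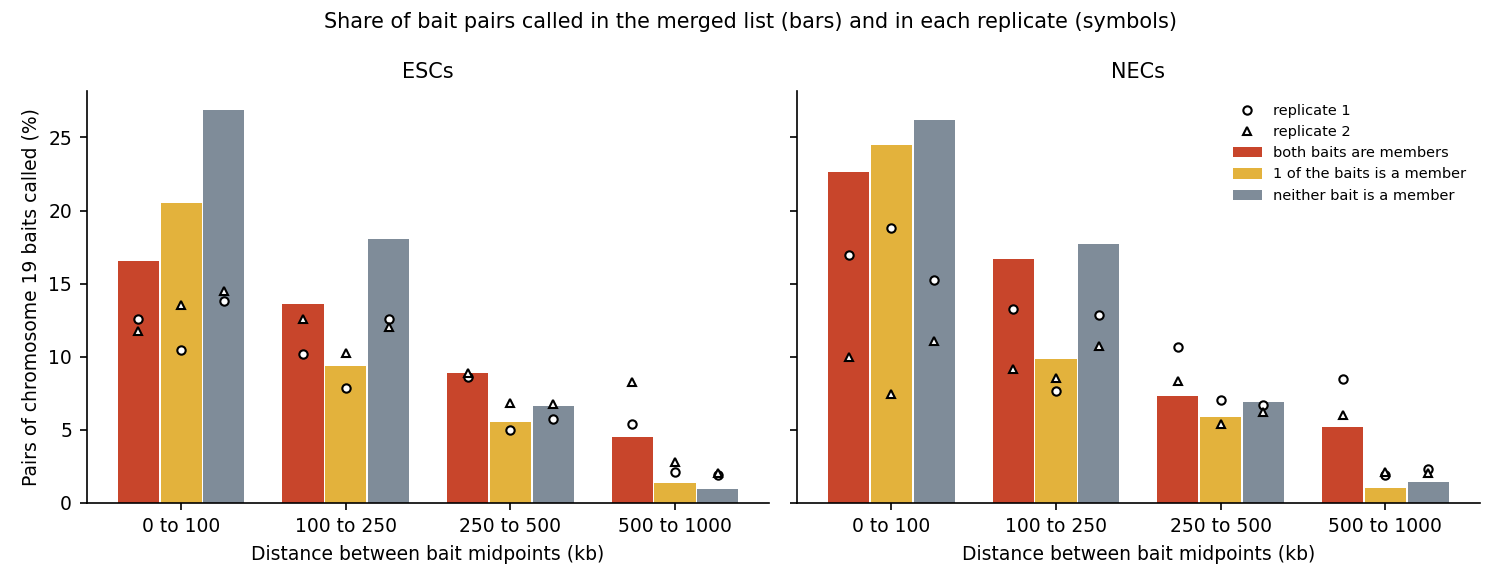
Share of pairs of chromosome 19 baits that were called in ESCs (left) and NECs (right), by the distance between bait midpoints in kb, for pairs of 2 member baits, pairs with 1 member bait and pairs with none. Bars are the merged list, circles replicate 1 and triangles replicate 2. Under 100 kb the member pairs lie below the other pairs in the merged lists but not in NEC replicate 1, and from 500 to 1000 kb they lie above them in every list. Several of the called member pairs from 500 to 1000 kb involve the single bait of ZNF329.

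Nearly all pairs of member baits were listed from 1 end. In the ESC merged list 1 of 141 pairs (0.709%) was called from both ends, and in the NEC merged list 11 of 159 (6.92%). Of pairs of other chromosome 19 baits, 11.6% and 13.5% were called from both ends. Which of 2 baits is given as the bait was read from the line numbers of the lists and could not be checked, so the numbers of PIRs and of calls to a bait depend on that reading. The bait of ZNF350, a gene known as a BRCA1-binding repressor, was by this reading reached from 7 member baits in ESCs and 8 in NECs and had 0 PIRs in both merged lists.

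The bait of ZNF329 (58660703 to 58668405) was the target of the most member baits in both merged lists. Calls to it came from 12 member baits in the ESC merged list and 20 in the NEC merged list, and from 7, 7, 16 and 10 in ESC replicates 1 and 2 and NEC replicates 1 and 2. In the ESC replicates the bait of ZNF583 (56910693 to 56918737), also in cluster 9, was reached from more, at 8 and 10. It had 7 in the ESC merged list, 2 in the NEC merged list, and 6 and 3 in the NEC replicates. All of these came from cluster 9, over distances of up to 1483 kb in the merged lists. From the bait of ZNF416, 577 kb away, the call to ZNF329 was present in all 4 replicates, with merged scores of 16.9 in ESCs and 16.5 in NECs. The calls from ZNF211 (526 kb), ZNF17 (743 kb) and ZNF304 (802 kb) were present in both NEC replicates and in no ESC list. Their NEC merged scores were 24.0, 21.2 and 12.2. ZNF329 itself rose by 0.75 on the log2 scale (SE 0.13, edgeR adjusted p = 0.00273), from 11.8 ± 0.0266 to 19.9 ± 0.589 CPM. ZNF211 rose by 0.54 (SE 0.13, edgeR adjusted p = 0.00999). The expression changes of ZNF17, ZNF304 and ZNF416 are not given here, and a link between these calls and expression was not tested.

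**Figure D4:**
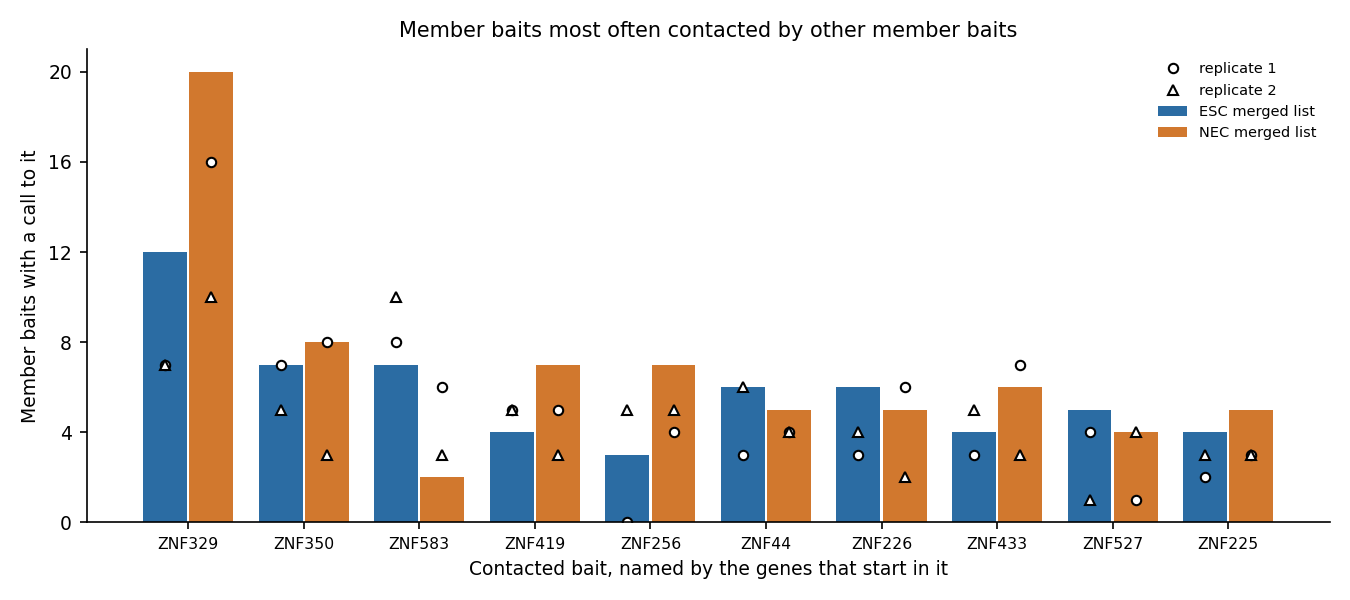
Number of member baits with a call to each of the 10 member baits with the highest number in either merged list. Bars are the merged lists of ESCs (blue) and NECs (orange), circles replicate 1 and triangles replicate 2. ZNF329 has 12 and 20 in the merged lists, ZNF350 has 7 and 8 and ZNF583 has 7 and 2, and in both ESC replicates ZNF583 lies above ZNF329.

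The strongest call between 2 member baits was the same in both cell types. It joined the bait of ZNF792 (35454269 to 35460674) to that of ZNF30 (35400216 to 35420569), 47.1 kb apart in cluster 5, with merged scores of 40.5 in ESCs and 40.6 in NECs. The replicate scores were 42.5 and 31.5 in ESCs and 41.7 and 19.3 in NECs. Neither gene passed the test for expression, with log2 fold changes of −0.27 (SE 0.26) for ZNF792 and 0.04 (SE 0.18) for ZNF30. The next in ESCs were ZNF616 to ZNF350 (merged score 28.4 in ESCs and 20.5 in NECs), ZNF146 to ZNF565 (22.4 and 12.8), ZNF577 to ZNF350 (21.5 and 28.0) and ZNF57 to ZNF77 (21.1 and 17.2). In NECs, ZNF563 to ZNF44 (28.0, and 20.8 in ESCs), ZNF529 to ZNF382 (25.5 and 18.7) and ZNF418 to ZNF329 (24.1 and 17.4) were also among the highest 5. All of these were called in both merged lists.

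Calls over long distances were rare. Of the member calls, 0.563% in ESCs and 0% in NECs lay beyond 2 Mb or on another chromosome, which are 2 calls and 0. For all other baits the shares were 0.731% and 0.641%. The bait that holds the starts of ZNF296 and GEMIN7 (45577644 to 45593887) had a call to a fragment of the X chromosome in which no gene of the table starts (41328221 to 41331389). Its scores were 21.3 in the ESC merged list, 17.0 and 31.0 in the ESC replicates and 23.9 in NEC replicate 1, and it was in neither of the other NEC lists. The other call joined ZNF146 to the bait of YIF1B, 2106 kb away, with a merged ESC score of 12.03, and it was in ESC replicate 1 but not in replicate 2. In the replicate lists the share of such calls was higher, from 1.27% to 4.94%.

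The numbers of PIRs per bait ranged widely among the members. The bait of ZNF526, which also holds the start of DEDD2, had the most, at 23 in the ESC merged list and 35 in the NEC merged list. The ESC replicates had 15 and 32 and the NEC replicates 33 and 17, a wider spread than that between the cell types. The bait of ZNF433 went from 7 PIRs to 24, but the ESC replicates had 1 and 4 and the NEC replicates 19 and 3, so that the difference rested on NEC replicate 1. ZNF524 had 6 and 15 (9, 2, 11 and 9 in the replicates) and ZNF792 had 13 and 10 (14, 20, 11 and 10). For ZNF428, which rose, the merged lists gave 2 and 13, the ESC replicates 7 and 3 and the NEC replicates 10 and 6. For ZNF565 the merged lists gave 8 and 1, the ESC replicates 5 and 6 and both NEC replicates 0, while its log2 fold change was 0.09 (SE 0.26). ZNF224, ZNF585B and ZNF529 each had 6 calls to other member baits in ESCs and 5, 6 and 6 in NECs, and ZNF211 had 5 in ESCs and 10 in NECs.

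limma was fitted to log2(number of PIRs + 1) in the 4 replicate lists for the 13880 baits with at least 10 PIRs in all, of which 73 were member baits. It called 0 member baits with more and 0 with fewer PIRs in NECs at an adjusted p under 0.05. Across all baits it called 0.0360% with more and 0.0432% with fewer. At an unadjusted p under 0.05 there were 5 member baits of 73, against 9.06% of all baits, and they were those of ZNF433, ZNF835, ZNF285, ZNF548 and ZNF575.

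**Figure D5:**
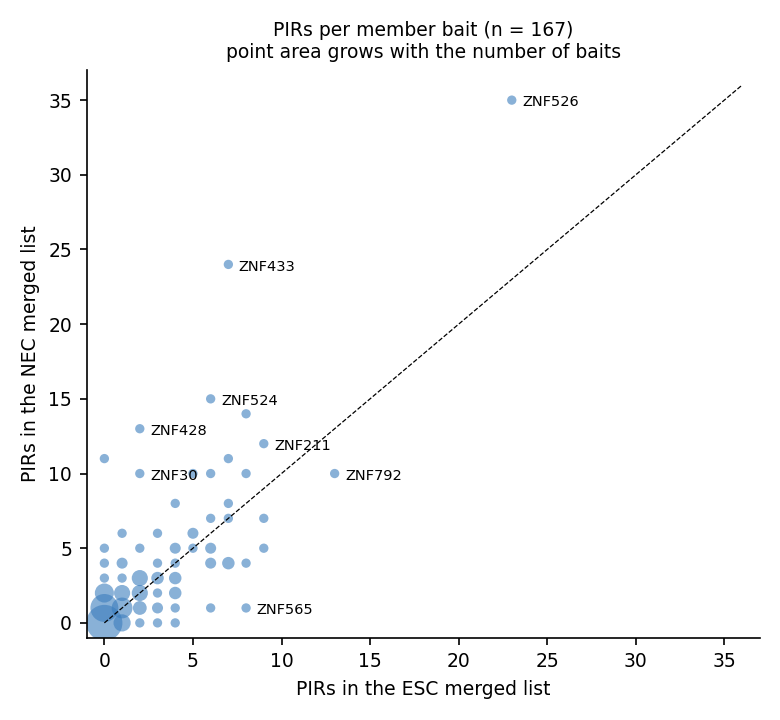
Number of PIRs of each of the 167 member baits in the ESC merged list (x axis) and the NEC merged list (y axis), with the dashed line at equal numbers and the point area growing with the number of baits at that place. Most baits lie near the origin, ZNF526 has the most PIRs (23 and 35), and ZNF433 (7 and 24) and ZNF428 (2 and 13) lie well above the line while ZNF565 (8 and 1) lies below it.

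Single interactions were compared between the cell types over the replicate lists. Of 1439 member interactions called in at least 1 replicate, 40 (2.78%) were called in all 4, 21 (1.46%) in both ESC replicates and in no NEC list, and 34 (2.36%) in both NEC replicates and in no ESC list. For all other baits these shares were 2.85%, 2.09% and 2.08%, and for the other baits of chromosome 19 they were 2.81%, 2.05% and 1.48%. The share in all 4 replicates was close to both. The share in ESCs alone lay below both and the share in NECs alone above both, and these differences were not tested. Of the 34 in NECs alone, 5 came from the bait shared by ZNF526 and DEDD2, and 3 ended on the bait of ZNF329. Of the 21 in ESCs alone the numbers were 0 and 0. Of the 40 interactions in all 4 replicates, 18 ended on another member bait, as did 6 of the 21 and 11 of the 34. The merged lists shared 178 member interactions, which is 50.1% of the 355 in ESCs and 38.4% of the 463 in NECs. For the other baits of chromosome 19 the shares were 46.6% and 47.5%, and for all other baits 44.2% and 44.3%.

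In ESCs, the highest score among interactions found in both replicates and in no NEC list was that of ZNF565 to a fragment 11.2 kb away within its own gene (19.5). Others were ZNF616 to ZNF615 (16.4), ZNF224 to IRGC (16.2) and ZNF792 to FXYD3 (14.9). The bait of ZNF331 was joined to another bait, 135 kb away, in which no gene of the count table starts (14.4). In NECs, the highest score was that of ZNF497 to ZBTB45 (24.9), followed by the calls from ZNF211 and ZNF17 to ZNF329. The bait of ZNF580 and ZNF581 was joined in NECs to the fragment of HSPBP1 and PPP6R1 (19.3) and to its neighbour with BRSK1 (18.9), a kinase gene of the nervous system. In ESCs alone it was joined to other fragments, such as that of PPP1R12C (13.6). The BRSK1 fragment was also reached in all 4 replicates from the baits of ZNF628 (merged scores 20.3 in ESCs and 18.9 in NECs) and ZNF784 (18.3 and 17.05). ZNF428 had a call in NECs alone to a fragment 1344 kb away in which no gene starts (13.7). The bait of ZNF536, whose counts differed so widely, was joined in all 4 replicates to a fragment 144 kb away in which no gene starts, with merged scores of 18.7 in ESCs and 18.8 in NECs. These examples were chosen after their values were seen.

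Changes in expression and in the number of PIRs were also set side by side. Of the 49 members with a bait that were higher in NECs at an edgeR adjusted p under 0.05, 27 had more PIRs in the NEC merged list, 8 had fewer and 14 had equal numbers. Of the 18 that were lower, 6 had more, 4 had fewer and 8 had equal numbers. Of the 98 that did not pass the test, 38 had more, 24 had fewer and 36 had equal numbers. Among those with equal numbers, 8 of the 14, 6 of the 8 and 21 of the 36 had no PIR in either merged list. Member baits as a whole had 355 calls in the ESC and 463 in the NEC merged list, and the same counts for other baits are not given here. Between members less than 500 kb apart, the median absolute difference in log2 fold change was 0.47 for the 170 gene pairs called in either merged list and 0.56 for the 746 not called. This describes pairs that share genes and libraries, and no test was made.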

How the data were processed

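RNA-seq counts (2 ESC and 2 NEC libraries) and PCHi-C lists were analysed. The conventional Hi-C was not analysed here. For the deposited counts, the authors aligned reads to GRCh37 (the submitters' processing notes name TopHat2 2.0.8b, Bowtie 1.0.0 and hg19) and counted raw reads per Ensembl gene in SeqMonk without strand or normalization. The score in the deposited lists is the authors' CHiCAGO score, at a threshold of 12, per replicate and merged.

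Counts were tested in edgeR 4.0.16 (R 4.3.3) with filterByExpr (minimum count 10), TMM and the quasi-likelihood test over all genes, with a prior count of 0.125. limma 3.58.1 was used for PIR numbers, with log2 values centred on each list's median. DESeq2 1.42.0 was run as an alternative. Lists were read in Python 3.11.15 with pandas 2.3.3, numpy 2.4.6 and scipy 1.17.1. Figures used matplotlib 3.10.9. The scripts were tested on simulated data. Bait to PIR direction was taken from the odd line numbers of the lists, and distances run between fragment midpoints.

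The members, lists and rules were chosen with earlier results of these data known. The labels state biological replicates. Named members are those called, the 5 with the highest level per kb in each cell type, the 3 baits with the most PIRs and with the most calls to members, the 5 highest scores between member baits, the 3 highest-scoring far calls, 16 with a described role, and the largest change in each cluster. Others named were chosen after their values were seen. Alternatives were other scalings, filters and tests, a replicate block, a score of 15, bait pairs counted once, PIRs within 10 kb counted as the same, 5 Mb as the long distance, a pseudocount of 0.5, members or baits without other genes, and leaving out each replicate. The depth of the lists is unknown, and counts limit precision for genes near the floor of 3 counts per library.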

Additional observations from a re-analysis of the deposited data

How the results depend on the processing

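The 9 higher and 6 lower calls stayed within 1.5 times under DESeq2's size factors (9 and 6), library size alone (13 and 6), DESeq2's test (9 and 5), no filter (9 and 6), a CPM of at least 1 in 2 libraries (8 and 4), members that overlap no other gene (6 and 6) and the replicate block (9 and 6). Leaving out 1 library gave 8 to 13 higher and 4 to 12 lower, with 12 lower without NEC replicate 2. Without the fold change threshold there were 59 and 33. The median log2 fold change was 0.229 with library size alone (0.0749 over all genes), 0.110 without a filter, 0.0881 for members that overlap no other gene, 0.153 with the replicate block, and 0.0720 to 0.210 with 1 library left out. Replicate numbers did not pair the RNA libraries (correlation of deviations 0.0610), and the replicate block also left 0 member baits called by PIR number.

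For interactions, a score of at least 15 gave a median of 2 PIRs per bait in ESCs and 1 in NECs, and 39.1% of ESC calls ending on member baits. It left 3 interactions in all 4 replicates, 6 in ESCs alone and 5 in NECs alone. Single replicates gave 2 to 3 PIRs in each cell type, 30.8% to 31.0% (ESCs) and 30.6% to 32.4% (NECs) ending on member baits, and 3.40% to 4.94% and 1.27% to 3.31% far calls. Baits with member starts alone gave 44.0% and 41.2% ending on member baits, and 22 interactions in NECs alone. PIR number calls stayed at 0 in every setting. The cause of these shifts was not tested.

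Of 525 refits of 53 named members, 490 kept direction and side of the adjusted p, 9 lost it, 5 gained it and 21 changed sign, all in the 12 members named here. With library size alone the log2 fold change was 0.0441 for ZNF331 and 0.0573 for ZNF587. With 1 library left out the ranges were −0.472 to 0.00861 for ZNF57, −0.616 to 0.458 for ZNF93, −0.00445 to 0.0798 for ZNF30, −0.107 to 0.265 for ZNF565, −0.423 to 0.236 for ZNF585B, −0.00891 to 0.0848 for ZNF526, −0.028 to 0.14 for ZNF350, −0.18 to 0.203 for ZNF616, −0.0969 to 0.0466 for ZNF331, −0.0637 to 0.214 for ZNF460, −0.0885 to 0.0545 for ZNF587 and −0.0164 to 0.143 for ZNF417.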
